A study of Mus musculus with 10 samples.

Results

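The lungs of mice with ovalbumin (OVA)-induced asthma were compared with the lungs of saline-treated mice by RNA-seq of whole lung tissue. The comparison used 6 of the 10 libraries of the study, 3 labelled Saline and 3 labelled OVA, and left aside the 4 libraries from OVA mice that were given a herbal extract. All mice were female BALB/c purchased at 8 weeks of age, and their age at collection is not stated. By the methods of the study, the OVA group was sensitised by injection of OVA with alum on day 0 and day 7 and then challenged with OVA through the nose from day 12 for 4 days, while the Saline group was injected with saline only. An oral vehicle was given to treatment groups from day 9 to day 15, and whether the Saline group received it is not clear from the methods. The samples are described as taken from mice, with no mention of pooling, so the p-values below measured the spread between 3 Saline and 3 OVA samples of 1 strain and 1 sex.

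Allergic asthma is an immune response of the airways to an inhaled protein in which T helper cells and innate lymphoid cells of the type 2 kind release the cytokines interleukin (IL)-4, IL-5 and IL-13. IL-5 sustains eosinophils, whereas IL-4 and IL-13 act through the transcription factor STAT6, turn macrophages towards the alternatively activated state and turn secretory cells of the airway lining into mucus-making goblet cells. The gas-exchange surface of the lung is formed by flat alveolar type 1 cells, by alveolar type 2 cells that make surfactant, and by a dense capillary bed.

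The deposited values were FPKM, fragment numbers divided by transcript length and by library size. Rows of 1 gene were summed and libraries were rescaled to a common 75th percentile, and every level below is such a rescaled FPKM in Saline 1, 2 and 3 and in OVA 1, 2 and 3. Fold changes are differences of log2(FPKM + 1) between OVA and Saline with their standard errors, so changes of genes near or below 1 FPKM were understated. The markers of lung were present in all 6 libraries. Sftpc, the surfactant protein of type 2 cells, measured 2320.1, 2193 and 1718 FPKM (Saline) against 476, 671 and 337 FPKM (OVA), and the pan-leukocyte gene Ptprc measured 0.839, 0.555 and 0.576 FPKM (Saline) against 0.528, 0.511 and 0.507 FPKM (OVA). Both were lower in every OVA lung than in any Saline lung on this scale. For Ptprc, which was below the level tested, the lowest Saline value was 0.555 FPKM and the highest OVA value 0.528 FPKM. A gap this small can close with another scaling. In a whole tissue, fewer cells of a type and less RNA per cell cannot be told apart. Depth was estimated from the step of the lowest FPKM values. It was 14.8 to 21.4 M fragments (M for mega) in Saline and 20.4 to 29.5 M fragments in OVA. The protein-coding share counts fragments on rows with a symbol, a protein-coding RefSeq accession and a known length. It leaves out 31605 rows without a symbol, so it can miss coding fragments. This share was 33.0% to 33.3% in Saline and 11.9% to 14.9% in OVA. The part of this difference in the results was not tested.

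Of 24394 gene symbols, 10969 had a mean of at least 1 FPKM and were tested with limma. Genes averaging below 1 deposited FPKM in Saline reached this level through OVA alone, so their direction was fixed by that filter. Among the genes named below, these included Chil4, Arg1, Mmp12, Ccl8, Batf3, Timp1, Ltf, Mx1, Zap70, Col27a1, Itpkb, Zgpat, Clca1, Muc5ac, Fcgbp, Agr2 and Spdef. Adjusted p was below 0.05 for 2134 genes that were higher in OVA, 19.5% of those tested, and for 1497 that were lower, 13.6%. The 3 OVA values lay above all 3 Saline values for 3356 genes tested (30.6%) and below them for 2619 (23.9%). Over all 24394 symbols, the corresponding shares were 22.7% and 12.6%. The median log2 fold change over the genes tested was 0.06. The split depended on the scale: 296 higher and 6306 lower with the FPKM as deposited (median -0.77), 1648 and 2093 with a common median, 3523 and 776 with a common protein-coding sum (median 0.35), and 1691 and 1563 after cyclic loess (median -0.02). The median log2 fold change also fell with the level of the gene, from 0.15 below 2 FPKM and 0.21 between 2 and 5 FPKM to -0.14 between 5 and 20 FPKM, -0.94 between 20 and 100 FPKM and -0.74 at 100 FPKM or more. Among the 441 genes between 20 and 100 FPKM, 224 fell (50.8%) and 23 rose. The ribosomal protein genes below had a median level of 40.3 FPKM, the surfactant genes Sftpc, Sftpa1 and Sftpd averaged over 100 FPKM, and the part of the level in their results was not tested. The shares of 19.5% and 13.6% are the background for the counts of calls in each list below. For members without overlap over all listed genes it is 22.7% and 12.6%. Both of these shares count 4196 symbols at 0 in all 6 libraries, so both are lower than among symbols with any signal. By level, 20.3% of genes fell between 5 and 20 FPKM and 50.8% between 20 and 100 FPKM.

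**Figure D1:**
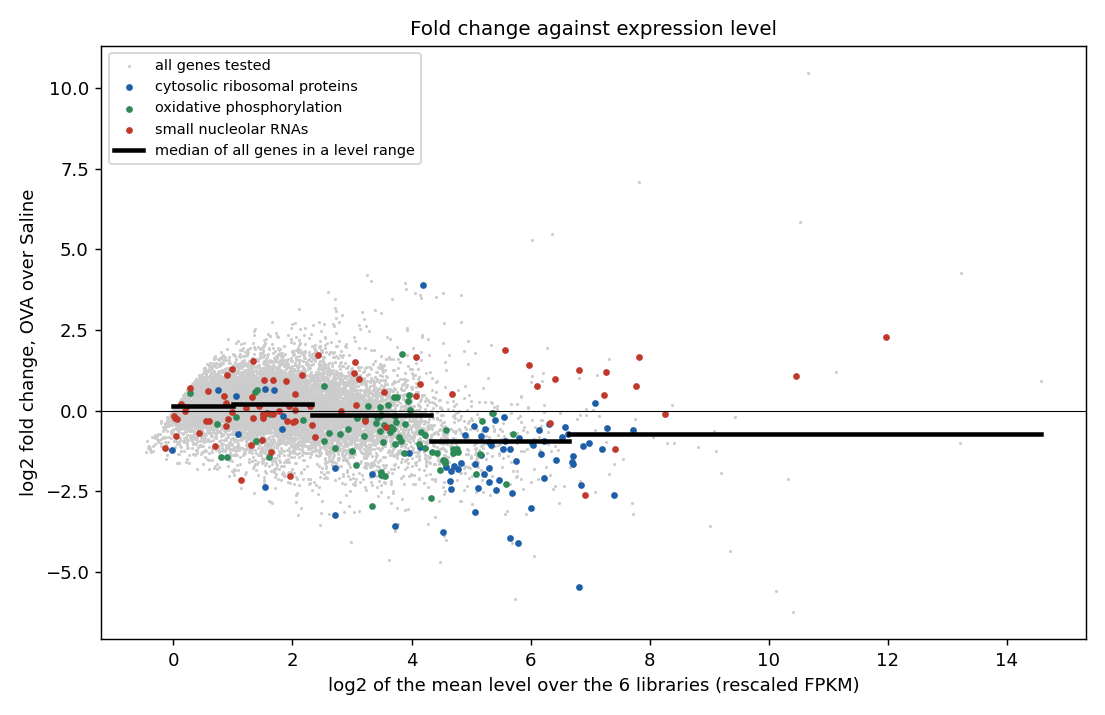
Log2 fold change of OVA over Saline (y axis) against the mean rescaled FPKM on a log axis (x axis) for the 10969 genes tested. All genes are in grey, with cytosolic ribosomal protein, oxidative phosphorylation and small nucleolar RNA genes coloured by list. The median of each level range is drawn as a line. The medians lie above 0 below 5 FPKM and reach -0.94 between 20 and 100 FPKM.

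The largest increase of any gene tested was that of Retnla, and it led the list of alternatively activated macrophage genes. Of the 14 genes on this list 9 were tested, 5 rose and none fell, and the median log2 fold change of the 9 was 1.59, against 0.06 over all genes tested. Chil4 and Arg1 were among the 5 and reached the level tested through OVA alone, so their direction was fixed by that filter. Retnla encodes a secreted resistin-like protein of macrophages and airway epithelium, and it measured 0, 0 and 4.06 FPKM (Saline) against 1149, 1892 and 6670.1 FPKM (OVA) (log2 fold change 10.47 ± 0.90, limma adjusted p = 0.0047). It was near absent from the saline-treated lungs and among the most abundant genes of all 3 OVA lungs. Chil4, a chitinase-like protein, measured 0, 0.562 and 0 FPKM (Saline) against 5.77, 40 and 345 FPKM (OVA) (log2 fold change 5.30 ± 1.36, limma adjusted p = 0.031). Arg1, the arginase that competes with nitric oxide synthase for arginine, measured 0, 0.155 and 0.13 FPKM (Saline) against 2.62, 6.04 and 30.9 FPKM (OVA) (log2 fold change 3.09 ± 0.77, limma adjusted p = 0.0286). For both, OVA 3 was far above OVA 1 and OVA 2, and every OVA value was above every Saline value. Cd163, the scavenger receptor for haemoglobin, measured 0.971, 1.83 and 0.783 FPKM (Saline) against 3.31, 6.16 and 8.12 FPKM (OVA) (log2 fold change 1.61 ± 0.32, limma adjusted p = 0.0163). Chil3, a chitinase-like protein made by lung macrophages, measured 62.9, 119 and 51.5 FPKM (Saline) against 127, 373 and 228 FPKM (OVA) (log2 fold change 1.59 ± 0.49, limma adjusted p = 0.0532), which missed the threshold although the groups did not overlap. Chia1, the acidic chitinase that digests chitin, rose, with 16.3, 15.1 and 10.5 FPKM (Saline) against 31, 51.1 and 78 FPKM (OVA) (log2 fold change 1.79 ± 0.36, limma adjusted p = 0.0165), whereas the mannose receptor Mrc1 measured 16.6, 18.9 and 11.7 FPKM (Saline) against 18.3, 28.1 and 28.4 FPKM (OVA) (log2 fold change 0.63 ± 0.25, limma adjusted p = 0.103). Chil3 and Chil4 are close copies, and how reads that fit both were assigned is not given in the sources used here. With each library left out in turn, Retnla (log2 fold change 9.75 to 11.25) kept its adjusted p below 0.05. Adjusted p exceeded 0.05 for Chil4 (log2 fold change 3.84 to 6.68) and Arg1 (log2 fold change 2.21 to 3.78) without any 1 Saline library or OVA 2, for Cd163 without Saline 1 or Saline 3 and for Chia1 without Saline 2 or Saline 3. In the FPKM as deposited, Cd163 and Chia1 no longer passed the threshold.

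The promoters of Retnla, Chil4 and Chil3 are shown because Retnla and Chil4 had the largest increases of the list, because Chil3 is the close copy of Chil4, and because the lung response to IL-4 and IL-13 runs through STAT6, whose site was searched in these windows. Each window runs from 250 bases before to 50 bases after the transcription start in RefSeq on GRCm38.p6, on the strand of the gene, and the first window listed was taken for each gene. Capitals mark the letters TTCNNNNGAA, the palindrome with a 4-base spacer that STAT6 is known to bind, in Retnla, and TTCNNNGAA, the form with a 3-base spacer bound by STAT proteins more widely, in Chil4 and Chil3. The windows are chr16:48842359-48842658 (plus strand), chr3:106219430-106219729 (minus strand) and chr3:106167515-106167814 (minus strand).
Retnla: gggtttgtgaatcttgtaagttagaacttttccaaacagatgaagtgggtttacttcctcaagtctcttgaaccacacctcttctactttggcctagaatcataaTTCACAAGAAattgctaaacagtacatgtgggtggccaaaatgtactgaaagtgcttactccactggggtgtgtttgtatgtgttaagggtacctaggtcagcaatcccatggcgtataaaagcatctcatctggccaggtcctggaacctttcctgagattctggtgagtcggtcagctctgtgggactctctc
Chil4: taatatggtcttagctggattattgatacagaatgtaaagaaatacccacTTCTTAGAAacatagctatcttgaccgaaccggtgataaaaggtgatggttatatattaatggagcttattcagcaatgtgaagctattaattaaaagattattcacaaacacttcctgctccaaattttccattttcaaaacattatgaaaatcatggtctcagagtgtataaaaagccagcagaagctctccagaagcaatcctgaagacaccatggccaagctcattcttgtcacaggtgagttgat
Chil3: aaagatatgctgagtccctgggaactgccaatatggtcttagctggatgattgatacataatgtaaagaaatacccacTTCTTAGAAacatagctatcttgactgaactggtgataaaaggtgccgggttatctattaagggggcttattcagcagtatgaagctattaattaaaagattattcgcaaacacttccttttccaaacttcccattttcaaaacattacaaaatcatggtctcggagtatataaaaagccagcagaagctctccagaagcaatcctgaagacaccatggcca
The match in Retnla starts 145 bases before the transcription start, and those of Chil4 and Chil3, which hold the same letters, start 200 and 172 bases before it. Among the 27025 promoter windows, 6.99% held TTCNNNNGAA on either strand and 8.47% held TTCNNNGAA. Among the 8119 windows of genes tested, the shares were 5.15% and 6.95%. Of the 11 genes of this list with a window, Retnla and Ccl17 held the first and Chil3, Chil4 and Ccl17 the second. Among genes that rose at least 2-fold the shares were 5.56% and 8.09%, and among genes that fell at least 2-fold 7.50% and 7.86%. Both letter patterns are palindromes, so that both strands read alike.

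Of 14 alveolar macrophage genes 12 were tested, 2 rose and 3 fell, beside 19.5% and 13.6% of all genes tested. The list median of 0.27 had no stable sign, with -0.67 in the FPKM as deposited, -0.02 without Saline 3 and -0.03 without OVA 3. Itgax, which encodes the integrin CD11c of alveolar macrophages and dendritic cells, measured 5.83, 5.74 and 2.93 FPKM (Saline) against 14.2, 20.6 and 31.3 FPKM (OVA) (log2 fold change 1.96 ± 0.35, limma adjusted p = 0.0128). Lpl, lipoprotein lipase, measured 32.1, 9.84 and 31.5 FPKM (Saline) against 5.76, 1.35 and 0.376 FPKM (OVA) (log2 fold change -3.02 ± 0.71, limma adjusted p = 0.0245). Among the genes of monocytes and interstitial macrophages, 2 of the 10 tested rose and 2 fell. The complement component C1qa rose, with 5.2, 6.14 and 3.03 FPKM (Saline) against 9.16, 14.8 and 13.8 FPKM (OVA) (log2 fold change 1.24 ± 0.28, limma adjusted p = 0.0216). Lyz2, the lysozyme of myeloid cells that type 2 cells also make, measured 951, 906 and 845 FPKM (Saline) against 272, 450.5 and 104 FPKM (OVA) (log2 fold change -1.94 ± 0.54, limma adjusted p = 0.0385), with every OVA value below the lowest Saline value. Genes on the macrophage lists thus split, with C1qa and Itgax up and Lpl and Lyz2, which type 2 cells also make, down. Mmp12, the macrophage elastase, was at or near 0 in Saline, with 0, 0.0135 and 0 FPKM (Saline) against 2.54, 3.65 and 5.18 FPKM (OVA) (log2 fold change 2.22 ± 0.23, limma adjusted p = 0.00635). When single libraries were left out, Itgax and Mmp12 kept their adjusted p below 0.05. The call was lost by Lpl (log2 fold change -3.66 to -2.51) and C1qa without Saline 1, Saline 3, OVA 2 or OVA 3 and by Lyz2 without any 1 Saline library or OVA 1. With the FPKM as deposited, Itgax and C1qa did not pass the threshold, nor did Lyz2 after cyclic loess, nor did Lyz2 with a common protein-coding sum.

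Of 14 listed genes of goblet and mucous cells, 11 were higher in every OVA library than in every Saline library and 0 were lower. Over all symbols, these shares were 22.7% and 12.6%. Of these 14, 11 reached the mean level tested and 1 passed the test. Clca1, the member that passed, and at least Muc5ac, Fcgbp, Agr2 and Spdef reached that level through OVA alone. Their direction was fixed by that filter, and the medians and numbers that passed include these members. OVA 3 stood far above OVA 1 and OVA 2 in many of them. The median of the tested members was 2.68 with all libraries and 1.56 without OVA 3, and the summed level of the list was 2.27, 2.9 and 6.37 FPKM (Saline) against 45.4, 114 and 1751 FPKM (OVA). Clca1, a secreted metalloprotease of goblet cells and the member that passed, measured 0, 0.0396 and 0 FPKM (Saline) against 28.9, 67.5 and 1265 FPKM (OVA) (log2 fold change 7.08 ± 1.35, limma adjusted p = 0.0145). Muc5ac and Spdef, 2 members chosen after their values were seen, showed the same pattern without passing the test. The gel-forming mucin Muc5ac measured 0, 0 and 0 FPKM (Saline) against 0.326, 0.394 and 30.1 FPKM (OVA) (log2 fold change 1.95 ± 1.24, limma adjusted p = 0.264). Fcgbp, a mucus protein that binds the Fc part of IgG, measured 0.135, 0.195 and 0.212 FPKM (Saline) against 3.3, 5.94 and 95.9 FPKM (OVA) (log2 fold change 3.59 ± 1.15, limma adjusted p = 0.0585). Agr2, the disulfide isomerase needed to fold mucins, measured 0, 0.349 and 0.118 FPKM (Saline) against 1.25, 4.05 and 49.3 FPKM (OVA) (log2 fold change 2.86 ± 1.11, limma adjusted p = 0.0964), and Spdef, the transcription factor of goblet cell differentiation, measured 0.131, 0.0888 and 0.158 FPKM (Saline) against 1.2, 1.16 and 7.39 FPKM (OVA) (log2 fold change 1.60 ± 0.55, limma adjusted p = 0.0707). In each of these genes OVA 3 held the highest value, by a wide margin. Without OVA 3 the number of members that passed was 6 of the 11 tested. On leaving out 1 library at a time, the threshold was missed by Clca1 (log2 fold change 5.48 to 8.18) without any 1 Saline library.

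**Figure D2:**
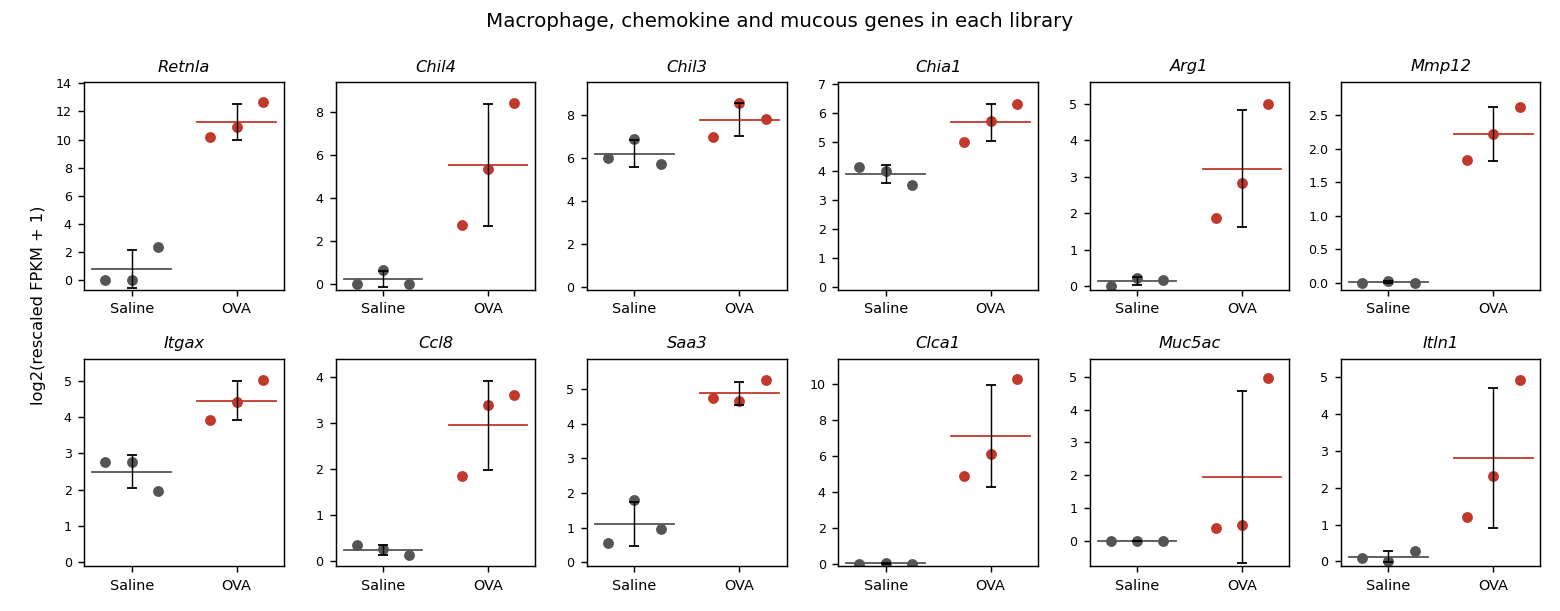
Rescaled FPKM on a log2(FPKM + 1) axis of genes of macrophages, chemokines, mucus and the acute phase in the 3 Saline and 3 OVA libraries, with points as libraries, the line as the mean and bars as the SD of the log2 values. Retnla and Clca1 are at or near 0 in Saline and high in all 3 OVA libraries, with OVA 3 the highest.

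Eosinophil granule genes were near the floor. Of 12 listed genes 3 were tested, none rose and 1 fell. Over all 12 the groups did not overlap upwards for 6 and downwards for 3, beside 22.7% and 12.6% of all symbols. The following genes had a mean below 1 FPKM, were not tested, and were chosen after their values were seen. Prg2, the major basic protein of eosinophil granules, was listed at 0 in all 3 Saline libraries and at 2.28, 2.41 and 1.41 FPKM in OVA. Alox15, the lipoxygenase of eosinophils and macrophages, measured 0.099, 0.205 and 0.0274 FPKM (Saline) against 1.19, 2.02 and 2.65 FPKM (OVA). The eotaxin receptor Ccr3 measured 0.0294, 0.0313 and 0.0747 FPKM (Saline) against 0.217, 0.442 and 0.169 FPKM (OVA). All 3 genes were above their Saline range in each OVA lung and stayed below 3 FPKM. The ribonucleases Ear1 and Ear2, which resident macrophages also express, ran the other way, with 16.2, 19.1 and 9.23 FPKM (Saline) against 2.88, 5.38 and 1.3 FPKM (OVA) for Ear1 (log2 fold change -1.98 ± 0.44, limma adjusted p = 0.0204) and 8.22, 12.8 and 6.16 FPKM (Saline) against 1.19, 4.61 and 4.01 FPKM (OVA) for Ear2 (log2 fold change -1.29 ± 0.43, limma adjusted p = 0.0638). Siglecf, shared by eosinophils and alveolar macrophages, measured 2.97, 3.23 and 2.15 FPKM (Saline) against 1.85, 1.76 and 0.917 FPKM (OVA) (log2 fold change -0.60 ± 0.21, limma adjusted p = 0.0738).

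Of 8 neutrophil genes tested, 1 rose and none fell. Ltf, the iron-binding lactoferrin of neutrophil granules and of airway glands, measured 0.137, 0.433 and 0.722 FPKM (Saline) against 3.28, 4.91 and 31.7 FPKM (OVA) (log2 fold change 2.73 ± 0.77, limma adjusted p = 0.0401). S100a8, an abundant calcium-binding protein of neutrophils, measured 21.5, 5.54 and 38.5 FPKM (Saline) against 5.81, 4.77 and 2.41 FPKM (OVA) (log2 fold change -1.81 ± 0.68, limma adjusted p = 0.0889), and S100a9 was listed at 0, 303 and 95.4 FPKM (Saline) against 0, 0 and 1.53 FPKM (OVA). Saline 2 and Saline 3 held most of the S100a9, and the groups overlapped for both. Among acute-phase and innate defence genes, 1 of 9 tested rose. That gene was Saa3, a serum amyloid protein made locally by macrophages and epithelium, with 0.481, 2.47 and 0.957 FPKM (Saline) against 25.6, 24 and 37 FPKM (OVA) (log2 fold change 3.76 ± 0.35, limma adjusted p = 0.00568), and its 3 OVA values lay close together. Across the fits without 1 library, Saa3 kept its adjusted p below 0.05. It rose above 0.05 for Ltf (log2 fold change 1.83 to 3.30) without any 1 Saline library or OVA 2 and for Ear1 without Saline 1, Saline 2 or OVA 1. After cyclic loess, Ltf did not pass the threshold, nor did Ltf with the FPKM as deposited.

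The type 2 cytokines themselves lay below 1 FPKM in every library and were not tested. Il4 and Il13, chosen after their values were seen, measured 0.16, 0.0719 and 0 FPKM (Saline) against 0.34, 0.626 and 0.228 FPKM (OVA) and 0, 0.101 and 0 FPKM (Saline) against 0, 0.105 and 0.318 FPKM (OVA), and Il9 and Il25 were listed at 0 throughout. Of 9 tested genes of type 2 cytokines, alarmins and receptors, 2 rose and 1 fell. Il1rl1, the IL-33 receptor, measured 0.888, 0.656 and 1.13 FPKM (Saline) against 1.99, 2.72 and 2.66 FPKM (OVA) (log2 fold change 0.87 ± 0.17, limma adjusted p = 0.0144). Crlf2, the receptor chain for the alarmin TSLP, measured 1.77, 0.446 and 1.81 FPKM (Saline) against 4.95, 4.65 and 4.79 FPKM (OVA) (log2 fold change 1.37 ± 0.28, limma adjusted p = 0.0166). Both receptors were higher in every OVA lung, whereas their ligands were not: Il33 measured 7.68, 19.2 and 9.95 FPKM (Saline) against 2.77, 8.52 and 8.36 FPKM (OVA) (log2 fold change -0.84 ± 0.48, limma adjusted p = 0.219) and Tslp measured 2.19, 2.77 and 1.15 FPKM (Saline) against 0.664, 1.76 and 0.382 FPKM (OVA) (log2 fold change -0.67 ± 0.34, limma adjusted p = 0.169). Rora, a nuclear receptor of type 2 innate lymphoid cells that many other lung cells express, measured 8.18, 8.57 and 7.62 FPKM (Saline) against 2.63, 3.91 and 1.87 FPKM (OVA) (log2 fold change -1.30 ± 0.21, limma adjusted p = 0.0107). Stat6 measured 8.28, 6.71 and 7.95 FPKM (Saline) against 7.39, 5.81 and 5.15 FPKM (OVA) (log2 fold change -0.29 ± 0.16, limma adjusted p = 0.209). Of 9 tested chemokines 2 rose and 3 fell. Ccl8, a chemokine of alternatively activated macrophages, measured 0.274, 0.198 and 0.095 FPKM (Saline) against 2.59, 9.42 and 11.2 FPKM (OVA) (log2 fold change 2.70 ± 0.47, limma adjusted p = 0.012), and Cxcl5, an attractant of neutrophils made by epithelium, measured 0.332, 1.31 and 0.919 FPKM (Saline) against 1.85, 2.76 and 3.7 FPKM (OVA) (log2 fold change 1.03 ± 0.28, limma adjusted p = 0.0367). Ccl5, made by T and NK cells, fell, with 7.86, 5.97 and 4.85 FPKM (Saline) against 0.974, 0.409 and 1.24 FPKM (OVA) (log2 fold change -1.95 ± 0.24, limma adjusted p = 0.00712). Ccl17 and Ccl22, ligands of the type 2 T cell receptor CCR4 that were not tested and were chosen after their values were seen, measured 0.14, 0.782 and 0.522 FPKM (Saline) against 2.01, 1.11 and 1.57 FPKM (OVA) and 0.354, 0.14 and 0.185 FPKM (Saline) against 1.4, 1.31 and 1.35 FPKM (OVA). Over all 26 chemokines listed, the groups did not overlap upwards for 11 and downwards for 4, beside 22.7% and 12.6% of all symbols. With each library left out in turn, Crlf2, Rora, Ccl8 and Ccl5 kept their adjusted p below 0.05. The threshold was missed by Il1rl1 without Saline 2 and by Cxcl5 without any 1 Saline library, OVA 2 or OVA 3. In the FPKM as deposited, Il1rl1, Crlf2 and Cxcl5 no longer passed the threshold, nor did Cxcl5 with cyclic loess scaling.

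Lymphocyte genes did not move as 1 block. Among 6 tested T cell genes, 2 rose and none fell. Zap70, the kinase of the T cell receptor, measured 0.675, 0.494 and 0.803 FPKM (Saline) against 2.44, 2.22 and 5 FPKM (OVA) (log2 fold change 1.29 ± 0.27, limma adjusted p = 0.0175), and Lat, the adaptor it phosphorylates, measured 1.61, 0.592 and 0.757 FPKM (Saline) against 2.27, 3.96 and 4.72 FPKM (OVA) (log2 fold change 1.22 ± 0.29, limma adjusted p = 0.0241). The receptor chain Cd3e measured 2.01, 1.39 and 2.75 FPKM (Saline) against 0.759, 1.25 and 1.3 FPKM (OVA) (log2 fold change -0.52 ± 0.22, limma adjusted p = 0.114), with the OVA values below those of Saline. Among 9 tested B cell genes, 2 rose and 2 fell. The transcription factor Pax5 measured 1.3, 0.486 and 1.4 FPKM (Saline) against 2.75, 3.34 and 4.1 FPKM (OVA) (log2 fold change 1.11 ± 0.23, limma adjusted p = 0.0184) and the kinase Blk measured 0.769, 0.583 and 1.19 FPKM (Saline) against 2.53, 2.84 and 4.18 FPKM (OVA) (log2 fold change 1.17 ± 0.21, limma adjusted p = 0.0126). The surface protein Ms4a1, known as CD20, measured 4.07, 2.95 and 5.03 FPKM (Saline) against 0.821, 1.58 and 2.18 FPKM (OVA) (log2 fold change -1.01 ± 0.26, limma adjusted p = 0.0319), and the receptor chain Cd79a measured 2.92, 2.17 and 2.84 FPKM (Saline) against 0.963, 0.858 and 0.0622 FPKM (OVA) (log2 fold change -1.21 ± 0.27, limma adjusted p = 0.0219). Within each lineage, Zap70 and Lat or Pax5 and Blk were higher in every OVA lung while Cd3e or Ms4a1 and Cd79a were lower in every OVA lung. Of 4 tested NK and cytotoxic genes none rose and 3 fell. They were Ccl5, Gzma and Nkg7, and the granule protease Gzma measured 7.37, 6.53 and 6.98 FPKM (Saline) against 1.18, 2.69 and 3.03 FPKM (OVA) (log2 fold change -1.32 ± 0.25, limma adjusted p = 0.0143). Jchain, the joining chain of secreted antibodies, was the 1 of 6 tested plasma cell genes that passed, with 2.83, 9.3 and 7.76 FPKM (Saline) against 1.49, 2.17 and 1.65 FPKM (OVA) (log2 fold change -1.35 ± 0.38, limma adjusted p = 0.0421). The list medians were 0.75 for T cells (-0.01 with the FPKM as deposited, and 0.47 without Saline 1), 0.05 for B cells (-0.50 with the FPKM as deposited, and -0.09 without OVA 3) and -1.08 for NK cells. When single libraries were left out, Pax5 and Blk kept their adjusted p below 0.05. Adjusted p exceeded 0.05 for Zap70, Cd79a and Gzma without any 1 Saline library and for Lat without Saline 2, Saline 3, OVA 2 or OVA 3. The same held for Ms4a1 without any 1 Saline library, OVA 1 or OVA 2 and for Jchain without Saline 2, Saline 3, OVA 1, OVA 2 or OVA 3. With a common protein-coding sum, Ms4a1 and Jchain did not pass the threshold, nor did Zap70, Lat, Pax5 and Blk with the FPKM as deposited.

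Among 9 tested genes of dendritic cells and MHC class II, 3 rose and none fell. Ciita, the master activator of MHC class II, measured 1.44, 0.588 and 1.36 FPKM (Saline) against 4.84, 5.59 and 10.4 FPKM (OVA) (log2 fold change 1.86 ± 0.31, limma adjusted p = 0.0109). Batf3, a transcription factor of cross-presenting dendritic cells, measured 0.293, 0.0929 and 0.123 FPKM (Saline) against 1.27, 3.19 and 4.72 FPKM (OVA) (log2 fold change 1.70 ± 0.35, limma adjusted p = 0.0175). Zbtb46, a dendritic cell transcription factor that endothelium also uses, measured 1.91, 1.63 and 1.71 FPKM (Saline) against 3.19, 3.51 and 3.62 FPKM (OVA) (log2 fold change 0.69 ± 0.11, limma adjusted p = 0.0105), although with the FPKM as deposited its direction was reversed. The class II chains did not follow Ciita: H2-Ab1 measured 22.8, 10.3 and 14.8 FPKM (Saline) against 14.6, 20.7 and 23 FPKM (OVA) (log2 fold change 0.31 ± 0.32, limma adjusted p = 0.478) and the invariant chain Cd74 measured 123, 61.4 and 96.9 FPKM (Saline) against 75.5, 106 and 77.4 FPKM (OVA) (log2 fold change -0.08 ± 0.30, limma adjusted p = 0.853). None of 3 tested mast cell and basophil genes passed. Hdc, the enzyme that makes histamine, measured 6.01, 7.69 and 9.94 FPKM (Saline) against 12.5, 11.5 and 19.8 FPKM (OVA) (log2 fold change 0.80 ± 0.26, limma adjusted p = 0.0625), and the mast cell proteases on the list were at or near 0. On leaving out 1 library at a time, Ciita and Zbtb46 kept their adjusted p below 0.05. The call was lost by Batf3 without any 1 Saline library.

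**Figure D3:**
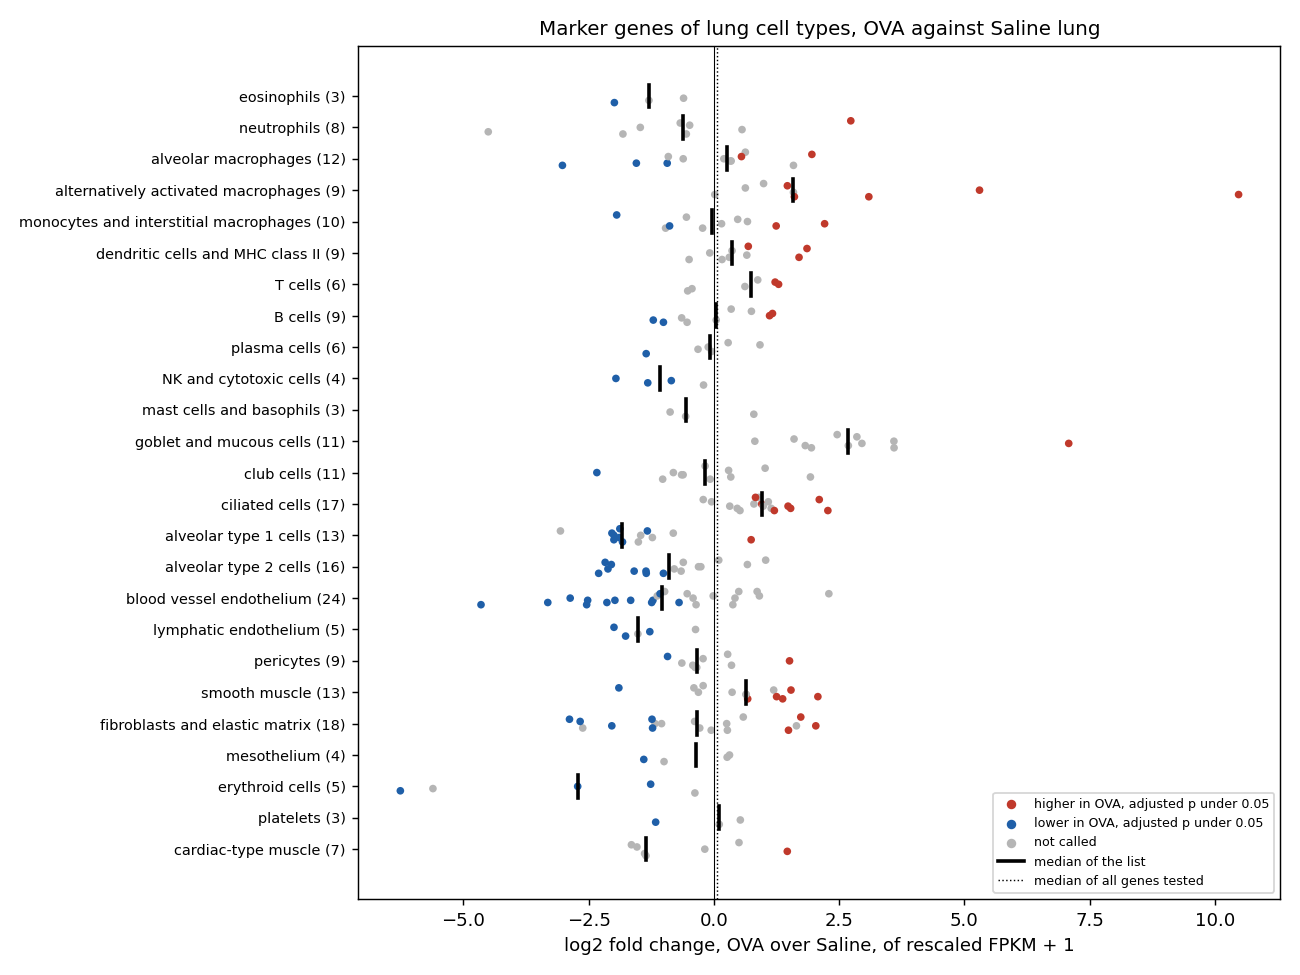
Log2 fold change of OVA over Saline (x axis) for the tested members of each cell type list, with each point a gene coloured by its call, the black bar the list median, the dotted line the median of all genes tested (0.06) and the number in brackets the members tested. Alternatively activated macrophages, goblet cells, ciliated cells and smooth muscle have medians above the dotted line, and alveolar type 1, alveolar type 2, endothelial and erythroid lists lie below it.

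Alveolar type 1 cell genes were mostly lower. Of 13 tested, 7 fell and 1 rose, with a median of -1.82 (-1.06 after cyclic loess, with 3 lower). The list had a median level of 19.6 FPKM. Of all genes tested, 20.3% fell between 5 and 20 FPKM and 50.8% between 20 and 100 FPKM. Hopx, a homeodomain protein of type 1 cells, measured 118, 153 and 113 FPKM (Saline) against 33.5, 41.8 and 21.3 FPKM (OVA) (log2 fold change -1.99 ± 0.28, limma adjusted p = 0.00888). Pdpn, the membrane glycoprotein podoplanin, measured 24.5, 34.1 and 22.1 FPKM (Saline) against 4.47, 8.57 and 5.26 FPKM (OVA) (log2 fold change -1.99 ± 0.27, limma adjusted p = 0.00835), and the same gene is on the lymphatic list. Emp2, a caveolar membrane protein, measured 117, 90 and 104 FPKM (Saline) against 35.7, 36.2 and 17.9 FPKM (OVA) (log2 fold change -1.82 ± 0.31, limma adjusted p = 0.0112). All 3 genes were lower in every OVA lung, and OVA 3 was the lowest for Hopx and Emp2. Cldn18, a tight junction claudin of the alveolus, measured 69.1, 51.9 and 55.9 FPKM (Saline) against 17.4, 27.1 and 4.95 FPKM (OVA) (log2 fold change -2.03 ± 0.57, limma adjusted p = 0.0399). Ager, the most abundant type 1 cell gene on the list, measured 309, 247 and 245 FPKM (Saline) against 132, 149 and 40.4 FPKM (OVA) (log2 fold change -1.51 ± 0.51, limma adjusted p = 0.0695), a difference that missed the threshold while the groups did not overlap. The 1 member that rose was Vegfa, which encodes the growth factor that type 1 cells send to capillaries, with 11.9, 11.2 and 9.33 FPKM (Saline) against 14.8, 17.8 and 24.7 FPKM (OVA) (log2 fold change 0.75 ± 0.21, limma adjusted p = 0.0431). Its direction was reversed with the FPKM as deposited. Across the fits without 1 library, Hopx, Pdpn and Emp2 kept their adjusted p below 0.05. Calls were lost for Cldn18 (log2 fold change -2.51 to -1.39) without any 1 Saline library or OVA 1 and for Vegfa without any 1 Saline library, OVA 2 or OVA 3. After cyclic loess, Emp2 and Cldn18 did not pass the threshold, nor did Cldn18 with a common protein-coding sum.

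Alveolar type 2 cell genes fell in 8 of 16 members tested and rose in none (median -0.90, -0.57 after cyclic loess, with 4 lower and 1 higher). The list had a median level of 22.9 FPKM, and 50.8% of all genes between 20 and 100 FPKM fell. Sftpc, given above, fell by 2.11 on the log2 scale (log2 fold change -2.11 ± 0.32, limma adjusted p = 0.00976). The surfactant protein Sftpa1 measured 473, 488 and 407 FPKM (Saline) against 205, 260.3 and 215 FPKM (OVA) (log2 fold change -1.01 ± 0.20, limma adjusted p = 0.015), and Sftpd, a collectin of the same family, measured 253, 251 and 205 FPKM (Saline) against 201, 212 and 178 FPKM (OVA) (log2 fold change -0.26 ± 0.18, limma adjusted p = 0.311). The surfactant genes thus differed among themselves, from a marked decrease of Sftpc to overlapping groups for Sftpd. Lamp3, a protein of the lamellar bodies in which surfactant is stored, measured 59.9, 64.6 and 51.5 FPKM (Saline) against 9.77, 23.9 and 7.63 FPKM (OVA) (log2 fold change -2.17 ± 0.41, limma adjusted p = 0.014). S100g, a calcium-binding protein, measured 16.4, 22.7 and 13.4 FPKM (Saline) against 3.56, 2.56 and 2.07 FPKM (OVA) (log2 fold change -2.30 ± 0.24, limma adjusted p = 0.00635). Lyz1, the second lysozyme, measured 87.9, 82.8 and 84.1 FPKM (Saline) against 25.6, 34.3 and 8.59 FPKM (OVA) (log2 fold change -2.05 ± 0.48, limma adjusted p = 0.0247). All 3 were lower in every OVA lung. Lyz1 and Lyz2 are close copies, and how their shared reads were assigned is not given in the sources used here. With each library left out in turn, Sftpc and S100g kept their adjusted p below 0.05. It rose above 0.05 for Sftpa1 without Saline 1 or Saline 2, for Lamp3 without Saline 2 and for Lyz1 without any 1 Saline library. With cyclic loess scaling, Sftpa1 and Lyz1 no longer passed the threshold.

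In the conducting airways, calls of ciliated cell genes were all increases, and almost no club cell gene was called. Of 17 tested ciliated cell genes, 7 rose and none fell, with a median of 0.96 (0.11 with the FPKM as deposited, with 2 higher and 1 lower). Foxj1, the master transcription factor of motile cilia, measured 1.95, 4.85 and 3.12 FPKM (Saline) against 14.5, 13.8 and 34.3 FPKM (OVA) (log2 fold change 2.28 ± 0.42, limma adjusted p = 0.0136). Ak7, an adenylate kinase of the axoneme, measured 1.27, 1.08 and 0.998 FPKM (Saline) against 6.19, 4.29 and 5.01 FPKM (OVA) (log2 fold change 1.53 ± 0.15, limma adjusted p = 0.00614). The outer arm dynein Dnah9 measured 1.56, 3.22 and 2.37 FPKM (Saline) against 9.06, 5.49 and 11.1 FPKM (OVA) (log2 fold change 1.48 ± 0.29, limma adjusted p = 0.0157), and Tubb4b, a beta-tubulin of cilia that other cells also use, measured 6.97, 7.16 and 8.17 FPKM (Saline) against 25.1, 26.9 and 64.2 FPKM (OVA) (log2 fold change 2.10 ± 0.37, limma adjusted p = 0.0121). Each was higher in all 3 OVA lungs. Tppp3, the most abundant gene on the list, measured 45.1, 39.4 and 40.5 FPKM (Saline) against 33.9, 32.8 and 58.8 FPKM (OVA) (log2 fold change -0.04 ± 0.25, limma adjusted p = 0.902), with overlapping groups. Of 11 tested club cell genes none rose and 1 fell. Scgb1a1, the secretoglobin that defines club cells and the most abundant messenger in these lungs, measured 9178, 16488 and 12478 FPKM (Saline) against 4506, 6055 and 8291 FPKM (OVA) (log2 fold change -1.02 ± 0.41, limma adjusted p = 0.105). The cytochrome Cyp2f2 measured 248, 421 and 349 FPKM (Saline) against 248, 197 and 138 FPKM (OVA) (log2 fold change -0.81 ± 0.31, limma adjusted p = 0.096). Cyp4b1 was the member that fell, with 118, 170.4 and 130.1 FPKM (Saline) against 39, 40.4 and 11.6 FPKM (OVA) (log2 fold change -2.33 ± 0.50, limma adjusted p = 0.0189). Scgb3a1, a secretoglobin of larger airways, measured 5.74, 17.9 and 36.6 FPKM (Saline) against 22.5, 30.7 and 354 FPKM (OVA) (log2 fold change 1.93 ± 1.18, limma adjusted p = 0.247), and its OVA 3 value stood apart as in the mucous genes. When single libraries were left out, Foxj1, Ak7 and Tubb4b kept their adjusted p below 0.05. The threshold was missed by Dnah9 without Saline 1 or Saline 3 and by Cyp4b1 without any 1 Saline library. After cyclic loess, Cyp4b1 did not pass the threshold, nor did Dnah9 and Tubb4b with the FPKM as deposited.

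**Figure D4:**
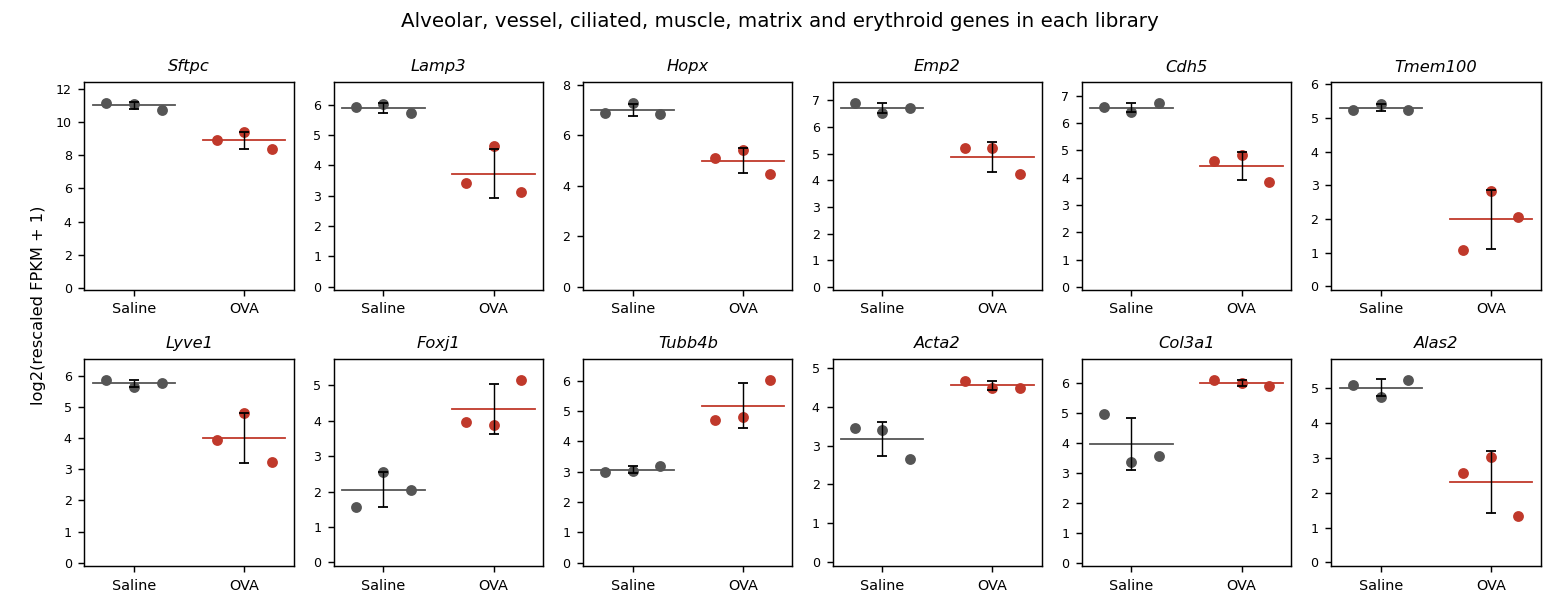
Rescaled FPKM on a log2(FPKM + 1) axis of alveolar, ciliated, endothelial, muscle, matrix and red cell genes in the 3 Saline and 3 OVA libraries, with points as libraries, the line as the mean and bars as the SD of the log2 values. Sftpc and Hopx are lower, and Foxj1 is higher, in each OVA library than in any Saline library.

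Of 24 tested genes of blood vessel endothelium, 12 fell and none rose, beside 50.8% lower of all genes between 20 and 100 FPKM. The median level of the list was 22.3 FPKM and its median log2 fold change -1.03. After cyclic loess the median was -0.33, with 2 higher and 5 lower, and without OVA 3 it was -0.62. Tmem100, a membrane protein induced by bone morphogenetic proteins, measured 36.9, 41.6 and 36.9 FPKM (Saline) against 1.12, 6.03 and 3.19 FPKM (OVA) (log2 fold change -3.31 ± 0.43, limma adjusted p = 0.00755). Calcrl, the receptor of adrenomedullin, measured 138, 147 and 168 FPKM (Saline) against 36.8, 37.8 and 5.09 FPKM (OVA) (log2 fold change -2.87 ± 0.74, limma adjusted p = 0.0315), and its partner Ramp2 measured 46.4, 71.9 and 66.1 FPKM (Saline) against 16.1, 16.1 and 3.22 FPKM (OVA) (log2 fold change -2.52 ± 0.58, limma adjusted p = 0.0237). S1pr1, the sphingosine phosphate receptor that keeps capillaries tight, measured 53.5, 53.4 and 62.5 FPKM (Saline) against 17.5, 15.4 and 2.17 FPKM (OVA) (log2 fold change -2.54 ± 0.68, limma adjusted p = 0.036). OVA 3 was the lowest library for Calcrl, Ramp2 and S1pr1 and the second lowest for Tmem100. Epas1, the hypoxia-inducible factor of endothelium, measured 253, 196 and 304 FPKM (Saline) against 104, 112 and 39.9 FPKM (OVA) (log2 fold change -1.66 ± 0.44, limma adjusted p = 0.0338). Acvrl1, the endothelial receptor for bone morphogenetic proteins in capillaries, stood at 30.1, 18 and 25.6 FPKM among the Saline libraries, with a listed value of 0 in each OVA library. Such a value of 0 can be a failed estimate. Other genes of the same cells overlapped between the groups, such as, chosen after their values were seen, Pecam1, an adhesion protein at cell contacts, with 87.4, 73.3 and 36 FPKM (Saline) against 58.1, 53.6 and 35 FPKM (OVA) (log2 fold change -0.35 ± 0.38, limma adjusted p = 0.504), and Vwf, the clotting factor, with 15.2, 10.1 and 15 FPKM (Saline) against 21.6, 23.2 and 13.9 FPKM (OVA) (log2 fold change 0.50 ± 0.26, limma adjusted p = 0.177). Kdr, the main VEGF receptor, fell while its ligand Vegfa rose, with 33.3, 27.9 and 38.2 FPKM (Saline) against 18.4, 14.2 and 9.48 FPKM (OVA) for Kdr (log2 fold change -1.21 ± 0.26, limma adjusted p = 0.0193). The direction of Vegfa was reversed with the FPKM as deposited. Its call was lost without any 1 Saline library, OVA 2 or OVA 3. On leaving out 1 library at a time, Tmem100 kept its adjusted p below 0.05. Adjusted p exceeded 0.05 for Calcrl (log2 fold change -3.32 to -1.98), Ramp2 (log2 fold change -2.86 to -1.84) and S1pr1 (log2 fold change -2.99 to -1.72) without any 1 Saline library, for Epas1 without any 1 Saline library or OVA 1 and for Kdr without Saline 1 or Saline 3. On a common protein-coding sum, S1pr1, Epas1 and Kdr no longer passed the threshold, nor did Calcrl, Ramp2, S1pr1, Epas1 and Kdr with cyclic loess scaling.

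Of 5 tested lymphatic genes, none rose and 3 fell, including the hyaluronan receptor Lyve1, with 57.1, 48.8 and 53.2 FPKM (Saline) against 14.2, 27.2 and 8.41 FPKM (OVA) (log2 fold change -1.76 ± 0.40, limma adjusted p = 0.0218). Among 22 tested genes of TGF-beta and BMP signalling 1 rose and 5 fell (median -0.65). Bmpr2, the type 2 receptor, measured 93, 103 and 99.4 FPKM (Saline) against 18.8, 27.9 and 9.71 FPKM (OVA) (log2 fold change -2.44 ± 0.36, limma adjusted p = 0.00939), and the co-receptor Tgfbr3 measured 21.1, 26.1 and 23.9 FPKM (Saline) against 10.2, 10.1 and 4.72 FPKM (OVA) (log2 fold change -1.47 ± 0.29, limma adjusted p = 0.0158). Both were lower in each OVA lung. Among 17 tested genes of VEGF, EGF and KIT signalling, 2 rose and 5 fell. Errfi1, a feedback inhibitor of the EGF receptor, measured 25.7, 41.7 and 30.9 FPKM (Saline) against 5.34, 9.79 and 2.85 FPKM (OVA) (log2 fold change -2.37 ± 0.40, limma adjusted p = 0.0115), and Figf, which encodes VEGF-D, measured 11.9, 10.4 and 14.3 FPKM (Saline) against 4.8, 5.46 and 1.93 FPKM (OVA) (log2 fold change -1.45 ± 0.33, limma adjusted p = 0.0214). Of 10 leukocyte adhesion genes tested, 1 rose and 2 fell. The integrin chain Itgb7 measured 2.32, 1.57 and 3.32 FPKM (Saline) against 5.64, 5.88 and 4.89 FPKM (OVA) (log2 fold change 0.96 ± 0.21, limma adjusted p = 0.0201), whereas the endothelial ligand Icam2 measured 20.2, 14.5 and 18.3 FPKM (Saline) against 7.2, 6.11 and 6.32 FPKM (OVA) (log2 fold change -1.30 ± 0.16, limma adjusted p = 0.00715) and Icam1 measured 36.4, 29.6 and 30.1 FPKM (Saline) against 16.3, 20.8 and 11 FPKM (OVA) (log2 fold change -0.99 ± 0.25, limma adjusted p = 0.0283). Across the fits without 1 library, Bmpr2, Errfi1 and Icam2 kept their adjusted p below 0.05. The call was lost by Lyve1 and Icam1 without any 1 Saline library or OVA 1 and by Tgfbr3 without Saline 2 or Saline 3. The same held for Figf without any 1 Saline library and for Itgb7 without Saline 1, Saline 2, OVA 1 or OVA 2. After cyclic loess, Lyve1 and Icam1 did not pass the threshold, nor did Figf and Icam1 with a common protein-coding sum, nor did Itgb7 with the FPKM as deposited.

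Smooth muscle genes rose in 5 of 13 members tested and fell in 1 (median 0.65), although with the FPKM as deposited the list median was -0.19 and none rose. The contractile actin Acta2 measured 10, 9.55 and 5.33 FPKM (Saline) against 24.5, 21.4 and 21.5 FPKM (OVA) (log2 fold change 1.37 ± 0.24, limma adjusted p = 0.0122). Actg2, the enteric smooth muscle actin, measured 2.1, 1.96 and 0.957 FPKM (Saline) against 5.83, 5.12 and 4.81 FPKM (OVA) (log2 fold change 1.25 ± 0.21, limma adjusted p = 0.0108), and the tropomyosin Tpm2 measured 3.79, 4.84 and 2.66 FPKM (Saline) against 13.2, 10.8 and 14 FPKM (OVA) (log2 fold change 1.54 ± 0.21, limma adjusted p = 0.00823). These 3 genes were higher in every OVA lung. Cald1, the actin-binding caldesmon, was the member that fell, with 4.96, 11.5 and 11.7 FPKM (Saline) against 0.58, 2.96 and 1.94 FPKM (OVA) (log2 fold change -1.89 ± 0.45, limma adjusted p = 0.0244). Among 9 tested pericyte genes 1 rose and 1 fell. Of 20 tested collagen chains 6 rose and 1 fell, with a median of 0.72 (-0.08 with the FPKM as deposited, and 0.43 without OVA 1). Col3a1, the chain of type III collagen, measured 30.6, 9.27 and 11 FPKM (Saline) against 68.1, 64 and 58.9 FPKM (OVA) (log2 fold change 2.04 ± 0.43, limma adjusted p = 0.019). Col6a2, of the beaded microfibrils, measured 12.2, 4.44 and 6.61 FPKM (Saline) against 28.2, 23.5 and 31.8 FPKM (OVA) (log2 fold change 1.81 ± 0.34, limma adjusted p = 0.014), and Col27a1, a fibrillar chain, measured 0.866, 0.379 and 0.659 FPKM (Saline) against 7.04, 3.8 and 3.63 FPKM (OVA) (log2 fold change 1.80 ± 0.26, limma adjusted p = 0.00893). Each was higher in all 3 OVA lungs. Col1a2, whose product pairs with that of Col1a1, stood at 15.8, 8.83 and 0.396 FPKM among the Saline libraries, had a listed value of 0 in each OVA library, and was not called. Its values of 0 can be failed estimates. With each library left out in turn, Acta2, Actg2, Tpm2 and Col27a1 kept their adjusted p below 0.05. Calls were lost for Cald1 without Saline 2, Saline 3, OVA 1 or OVA 3, for Col3a1 without Saline 2, Saline 3 or OVA 1 and for Col6a2 without Saline 3. In the FPKM as deposited, Acta2, Actg2, Tpm2, Col3a1 and Col6a2 no longer passed the threshold.

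Fibroblast and elastic matrix genes split, with 3 of 18 tested higher and 5 lower. Mfap4, a protein of elastic fibres, measured 58.8, 48.2 and 49 FPKM (Saline) against 12.5, 16.7 and 7.93 FPKM (OVA) (log2 fold change -2.04 ± 0.27, limma adjusted p = 0.00821), and the small proteoglycan Dcn measured 18, 36.7 and 11 FPKM (Saline) against 2.67, 3.92 and 0.857 FPKM (OVA) (log2 fold change -2.67 ± 0.53, limma adjusted p = 0.0158). Inmt, a methyltransferase of alveolar fibroblasts, measured 352, 338 and 368 FPKM (Saline) against 77.6, 102 and 12.7 FPKM (OVA) (log2 fold change -2.88 ± 0.76, limma adjusted p = 0.0337). All 3 were lower in every OVA lung, the opposite of Col3a1. Among matrix metalloproteinases and their inhibitors, 3 of 10 tested rose and 3 fell. The inhibitor Timp1 measured 0.547, 0.158 and 0.175 FPKM (Saline) against 1.3, 3.98 and 5.87 FPKM (OVA) (log2 fold change 1.74 ± 0.42, limma adjusted p = 0.0255), whereas Timp3, which is held in the matrix, measured 133, 61.8 and 119.7 FPKM (Saline) against 22, 40.6 and 9.74 FPKM (OVA) (log2 fold change -2.21 ± 0.56, limma adjusted p = 0.0294), and the stromelysin Mmp3 measured 6.55, 5.14 and 3.17 FPKM (Saline) against 1.38, 1.04 and 0.185 FPKM (OVA) (log2 fold change -1.69 ± 0.34, limma adjusted p = 0.0163). When single libraries were left out, Mfap4 kept its adjusted p below 0.05. It rose above 0.05 for Dcn without Saline 1 and for Inmt (log2 fold change -3.43 to -1.98) and Timp3 without any 1 Saline library or OVA 1. The same held for Timp1 without any 1 Saline library or OVA 2 and for Mmp3 without Saline 1 or Saline 2. After cyclic loess, Inmt and Timp3 did not pass the threshold, nor did Inmt and Timp3 with a common protein-coding sum.

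Red cell genes were lower in OVA, with 3 of 5 tested members called and a median of -2.72. The alpha globin gene Hba-a2 measured 2699, 2282 and 2702 FPKM (Saline) against 0.975, 398 and 46.4 FPKM (OVA) (log2 fold change -6.26 ± 1.83, limma adjusted p = 0.0457), while its near-identical copy Hba-a1 measured 12.3, 14.2 and 22.5 FPKM (Saline) against 223, 5.35 and 0.525 FPKM (OVA) (log2 fold change -0.38 ± 1.77, limma adjusted p = 0.882), so that the split of their reads is uncertain. Alas2, the first enzyme of haem synthesis in red cells, measured 32.8, 25.9 and 36.5 FPKM (Saline) against 4.91, 7.13 and 1.49 FPKM (OVA) (log2 fold change -2.72 ± 0.45, limma adjusted p = 0.0108). The anion exchanger Slc4a1 measured 2.54, 1.77 and 2.99 FPKM (Saline) against 0.602, 0.578 and 0.129 FPKM (OVA) (log2 fold change -1.26 ± 0.22, limma adjusted p = 0.0126). The summed level of the list was 4773, 4179 and 5052 FPKM (Saline) against 312, 819 and 49.8 FPKM (OVA), and its part in the other results was not tested. Atrial and ventricular muscle genes, which mark the muscle sleeves of pulmonary veins as well as heart, summed to 16.3, 55.2 and 7.38 FPKM (Saline) against 15.7, 13.6 and 19.8 FPKM (OVA), and Saline 2 held the highest value of Myl4, an atrial light chain, with 2.46, 9.65 and 1.68 FPKM (Saline) against 0.729, 0.478 and 0.592 FPKM (OVA). Actc1, cardiac actin, was the 1 of 7 tested members of this list that passed and it rose, with 3.57, 4.07 and 1.23 FPKM (Saline) against 8.98, 8.62 and 10.4 FPKM (OVA) (log2 fold change 1.47 ± 0.33, limma adjusted p = 0.021). On leaving out 1 library at a time, Alas2 and Slc4a1 kept their adjusted p below 0.05. The threshold was missed by Hba-a2 (log2 fold change -8.04 to -4.21) without any 1 Saline library or OVA 3 and by Actc1 without OVA 1 or OVA 3. In the FPKM as deposited, Actc1 no longer passed the threshold, nor did Hba-a2 with cyclic loess scaling.

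Among genes of the translation and energy machinery, more fell than rose. The median level was 40.3 FPKM for the ribosomal list, 12.6 FPKM for oxidative phosphorylation and 10.3 FPKM for the proteasome. Of all genes tested, 50.8% fell between 20 and 100 FPKM and 20.3% between 5 and 20 FPKM. Of 73 cytosolic ribosomal protein genes tested, 40 fell and 1 rose, with a median of -1.31 (-0.66 after cyclic loess, with 17 lower and 4 higher). Rps29, a small subunit protein, measured 189, 480.3 and 208 FPKM (Saline) against 29.2, 50.9 and 51.9 FPKM (OVA) (log2 fold change -2.62 ± 0.43, limma adjusted p = 0.0109). Rpl11, a large subunit protein, measured 84.9, 98.4 and 88 FPKM (Saline) against 24.7, 0 and 6.94 FPKM (OVA) (log2 fold change -3.95 ± 1.13, limma adjusted p = 0.0425). Ribosomal proteins have many processed pseudogenes, and single members such as Rps21, at 127, 293 and 181 FPKM (Saline) against 0, 0 and 77.4 FPKM (OVA) (log2 fold change -5.47 ± 1.75, limma adjusted p = 0.0583), switched between 0 and high values. Of 75 tested genes of oxidative phosphorylation, 27 fell and 1 rose (median -0.69), against 65 and 0 with the FPKM as deposited (-1.72) and 17 and 4 after cyclic loess (-0.53). Cox6c, a subunit of cytochrome oxidase, measured 64.8, 109.5 and 62.7 FPKM (Saline) against 19.1, 6.28 and 26.8 FPKM (OVA) (log2 fold change -2.28 ± 0.54, limma adjusted p = 0.0243). The core subunit Atp5a1 of the ATP synthase measured 41.7, 44 and 40.1 FPKM (Saline) against 33.9, 38.8 and 48.3 FPKM (OVA) (log2 fold change -0.07 ± 0.17, limma adjusted p = 0.782), with overlapping groups. Of 36 tested proteasome genes, 13 fell and 1 rose (median -0.59), against 34 and 0 with the FPKM as deposited (-1.52) and 8 and 2 after cyclic loess (-0.44). Psma6, of the outer ring, measured 23.1, 32.7 and 24.3 FPKM (Saline) against 8.93, 10.5 and 11.8 FPKM (OVA) (log2 fold change -1.27 ± 0.19, limma adjusted p = 0.00928) and Psmb1, of the inner ring, measured 24.6, 32.7 and 25.7 FPKM (Saline) against 10.9, 14 and 15.8 FPKM (OVA) (log2 fold change -0.98 ± 0.19, limma adjusted p = 0.0152). Across the fits without 1 library, Rps29 and Psma6 kept their adjusted p below 0.05. Adjusted p exceeded 0.05 for Rpl11 (log2 fold change -5.02 to -2.68) without any 1 Saline library or OVA 3, for Cox6c without any 1 Saline library and for Psmb1 without Saline 2. After cyclic loess, Rpl11, Cox6c and Psmb1 did not pass the threshold, nor did Rpl11 with a common protein-coding sum.

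Rn45s and Snord17, RNAs without a poly(A) tail, were among the most abundant genes that rose. The ribosomal RNA precursor Rn45s measured 996, 973 and 870.2 FPKM (Saline) against 18606, 14606 and 21724 FPKM (OVA) (log2 fold change 4.26 ± 0.29, limma adjusted p = 0.0029). The small nucleolar RNA Snord17, which guides modification of ribosomal RNA, measured 1119, 1369.5 and 1598 FPKM (Saline) against 7651, 4879 and 7483 FPKM (OVA) (log2 fold change 2.28 ± 0.32, limma adjusted p = 0.00879). Of 78 tested small nucleolar RNAs 16 rose and 7 fell, close to the 19.5% and 13.6% of all genes tested, and the falls included Snord8, with 4.75, 4.31 and 3.6 FPKM (Saline) against 0.524, 0 and 0.0368 FPKM (OVA) (log2 fold change -2.16 ± 0.21, limma adjusted p = 0.00614). Of 58 tested replication-dependent histone genes, 10 rose and 4 fell. The linker histone Hist1h1d measured 7.21, 8.16 and 10.5 FPKM (Saline) against 29.5, 31.6 and 30.8 FPKM (OVA) (log2 fold change 1.73 ± 0.16, limma adjusted p = 0.00565), whereas the core histone Hist1h4h measured 32.7, 64.4 and 34.2 FPKM (Saline) against 12.7, 22.4 and 18.6 FPKM (OVA) (log2 fold change -1.21 ± 0.33, limma adjusted p = 0.0385). The protein-coding share given above was lower in the OVA libraries, and its part in these results was not tested. The labels and the methods name different RNA kits, so how RNA without a tail was treated is not clear. With each library left out in turn, Rn45s, Snord17, Snord8 and Hist1h1d kept their adjusted p below 0.05. The call was lost by Hist1h4h without any 1 Saline library, OVA 1 or OVA 3. On a common protein-coding sum, Hist1h4h no longer passed the threshold, nor did Hist1h4h with cyclic loess scaling.

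The symbols of 3 microRNA loci were among the largest changes. The mature sequences are shown because an RNA-seq library of this kind measures the locus and not the mature strand, so a reader needs to know which product each symbol names. Capitals mark the seed, bases 2 to 8, and sequences and positions are those of RefSeq on GRCm38.p6, at chr9:110281353-110281371, chr11:117077370-117077391, chr11:117077412-117077433 and chr1:153899989-153900009, all on the plus strand.
miR-6236: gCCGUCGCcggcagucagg
miR-6516-5p: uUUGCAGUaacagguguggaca
miR-6516-3p: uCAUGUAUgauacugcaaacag
miR-8114: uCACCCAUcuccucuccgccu
No 2 of these share a seed. Mir6236 measured 57.6, 60.9 and 26.2 FPKM (Saline) against 1706, 2585 and 4407 FPKM (OVA) (log2 fold change 5.86 ± 0.48, limma adjusted p = 0.00439), and Mir6516 measured 0.158, 0.123 and 28.9 FPKM (Saline) against 189, 157 and 115 FPKM (OVA) (log2 fold change 5.49 ± 1.30, limma adjusted p = 0.0251). Mir8114 went the other way, with 29.9, 71.1 and 30.9 FPKM (Saline) against 0.49, 0.366 and 0.952 FPKM (OVA) (log2 fold change -4.71 ± 0.37, limma adjusted p = 0.00385). In Mir6516 the Saline 3 value stood far above Saline 1 and Saline 2. These symbols can hold reads of overlapping transcripts, and the mature microRNAs were not measured here. When single libraries were left out, Mir6236 and Mir8114 kept their adjusted p below 0.05. Calls were lost for Mir6516 (log2 fold change 4.69 to 7.06) without Saline 1, Saline 2, OVA 1, OVA 2 or OVA 3.

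Proliferation genes were mostly below the level tested. Of 30 listed genes 12 were tested, 3 rose and 2 fell, with a median of 0.54 (-0.14 with the FPKM as deposited). Over all 30, the groups did not overlap upwards for 24 and downwards for 2, beside 22.7% and 12.6% of all symbols. Top2a, the topoisomerase of dividing cells, measured 1.38, 0.896 and 0.829 FPKM (Saline) against 3.59, 3.68 and 5.87 FPKM (OVA) (log2 fold change 1.39 ± 0.21, limma adjusted p = 0.00957), and the proliferation antigen Mki67 measured 2.08, 1.73 and 1.48 FPKM (Saline) against 3.6, 5.72 and 6.53 FPKM (OVA) (log2 fold change 1.16 ± 0.21, limma adjusted p = 0.0136). Pcna, the replication clamp, fell, with 12.2, 15.1 and 11.2 FPKM (Saline) against 4.78, 6.32 and 9.48 FPKM (OVA) (log2 fold change -0.85 ± 0.25, limma adjusted p = 0.0462). Among 9 tested DNA methylation enzymes and readers 3 rose and 3 fell. The maintenance methyltransferase Dnmt1 measured 4.05, 2.8 and 4.18 FPKM (Saline) against 8.58, 7.65 and 8.97 FPKM (OVA) (log2 fold change 1.02 ± 0.16, limma adjusted p = 0.0102) and the de novo enzyme Dnmt3a measured 1.07, 0.584 and 3.24 FPKM (Saline) against 4.83, 9.25 and 8.02 FPKM (OVA) (log2 fold change 1.76 ± 0.41, limma adjusted p = 0.0243). Both were higher in each OVA lung, while the methyl-CpG reader Mbd2 was lower, with 14.7, 15 and 14.1 FPKM (Saline) against 8.2, 10.5 and 9.71 FPKM (OVA) (log2 fold change -0.58 ± 0.13, limma adjusted p = 0.0226). On leaving out 1 library at a time, Top2a and Dnmt1 kept their adjusted p below 0.05. It rose above 0.05 for Mki67 without Saline 2 or Saline 3 and for Pcna without any 1 Saline library, OVA 1 or OVA 2. The same held for Dnmt3a without Saline 1, Saline 2, OVA 2 or OVA 3 and for Mbd2 without any 1 Saline library. On a common protein-coding sum, Pcna and Mbd2 no longer passed the threshold, nor did Top2a, Mki67, Dnmt1 and Dnmt3a in the FPKM as deposited, nor did Pcna and Mbd2 with cyclic loess scaling.

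Of 16 tested heat shock and ER stress genes, 2 rose and 1 fell, no more than the 19.5% and 13.6% of all genes tested. Herpud1, of ER-associated degradation, measured 0.98, 1.68 and 1.45 FPKM (Saline) against 22.1, 19.4 and 17.4 FPKM (OVA) (log2 fold change 3.13 ± 0.16, limma adjusted p = 0.00113) and the stress transcription factor Ddit3 measured 2.94, 2.99 and 3.18 FPKM (Saline) against 7.39, 7.45 and 9.76 FPKM (OVA) (log2 fold change 1.18 ± 0.14, limma adjusted p = 0.00698). Both were higher in every OVA lung, whereas the ER chaperone Hspa5 measured 10.3, 25.3 and 10.5 FPKM (Saline) against 26.8, 36.2 and 20.5 FPKM (OVA) (log2 fold change 0.90 ± 0.40, limma adjusted p = 0.127). Of 14 tested glucocorticoid-responsive genes none rose and 5 fell (median -1.12). The kinase Sgk1 measured 8.19, 17.3 and 9.94 FPKM (Saline) against 3.43, 4.11 and 2.43 FPKM (OVA) (log2 fold change -1.52 ± 0.30, limma adjusted p = 0.0152), and Pdk4, which restrains pyruvate oxidation, measured 10.9, 23.3 and 12.1 FPKM (Saline) against 3.41, 3.35 and 1.36 FPKM (OVA) (log2 fold change -2.13 ± 0.37, limma adjusted p = 0.0122). Tsc22d3, known as GILZ, measured 113, 110.5 and 114 FPKM (Saline) against 56.9, 66.9 and 26.6 FPKM (OVA) (log2 fold change -1.25 ± 0.35, limma adjusted p = 0.0412). The receptor Nr3c1 measured 13.5, 12.7 and 1.41 FPKM (Saline) against 5.81, 8.78 and 2.23 FPKM (OVA) (log2 fold change -0.39 ± 0.80, limma adjusted p = 0.733), with Saline 3 far below the other Saline libraries. Of 12 tested clock genes 2 rose and 3 fell, including Clock itself, with 12.7, 13.8 and 13.1 FPKM (Saline) against 6.05, 8.03 and 6.41 FPKM (OVA) (log2 fold change -0.87 ± 0.14, limma adjusted p = 0.0104). The time of day of collection is not given in the sources used here. Across the fits without 1 library, Herpud1, Ddit3, Sgk1, Pdk4 and Clock kept their adjusted p below 0.05. The threshold was missed by Tsc22d3 without any 1 Saline library or OVA 1. With the FPKM as deposited, Ddit3 did not pass the threshold, nor did Tsc22d3 after cyclic loess, nor did Tsc22d3 with a common protein-coding sum.

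Detoxifying enzymes were lower where they were called, with 1 exception. Of 21 tested xenobiotic-metabolising enzymes 8 fell and 1 rose (median -0.71). Cyp2b10, a cytochrome of lung epithelium and liver, measured 23.5, 34.3 and 21.9 FPKM (Saline) against 4.54, 4.87 and 0 FPKM (OVA) (log2 fold change -3.08 ± 0.71, limma adjusted p = 0.0234). Cyp4b1, given with the club cell genes, is also on this list. Among 13 tested genes of the NRF2 antioxidant response none rose and 2 fell, namely the factor itself, Nfe2l2, with 18.9, 21.6 and 18.5 FPKM (Saline) against 8.49, 8.13 and 9.59 FPKM (OVA) (log2 fold change -1.09 ± 0.13, limma adjusted p = 0.00704), and the peroxiredoxin Prdx1, with 54.2, 76.4 and 57.9 FPKM (Saline) against 16.1, 26.7 and 34.1 FPKM (OVA) (log2 fold change -1.31 ± 0.30, limma adjusted p = 0.0236). The metabolic lists had few calls: 1 higher and 3 lower of 17 for cholesterol synthesis, 1 and 1 of 12 for fatty acid synthesis and storage, and 2 and 1 of 12 for glycolysis. With each library left out in turn, Nfe2l2 kept its adjusted p below 0.05. Adjusted p exceeded 0.05 for Cyp2b10 (log2 fold change -3.52 to -2.25) and Prdx1 without any 1 Saline library. With cyclic loess scaling, Prdx1 no longer passed the threshold.

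**Figure D5:**
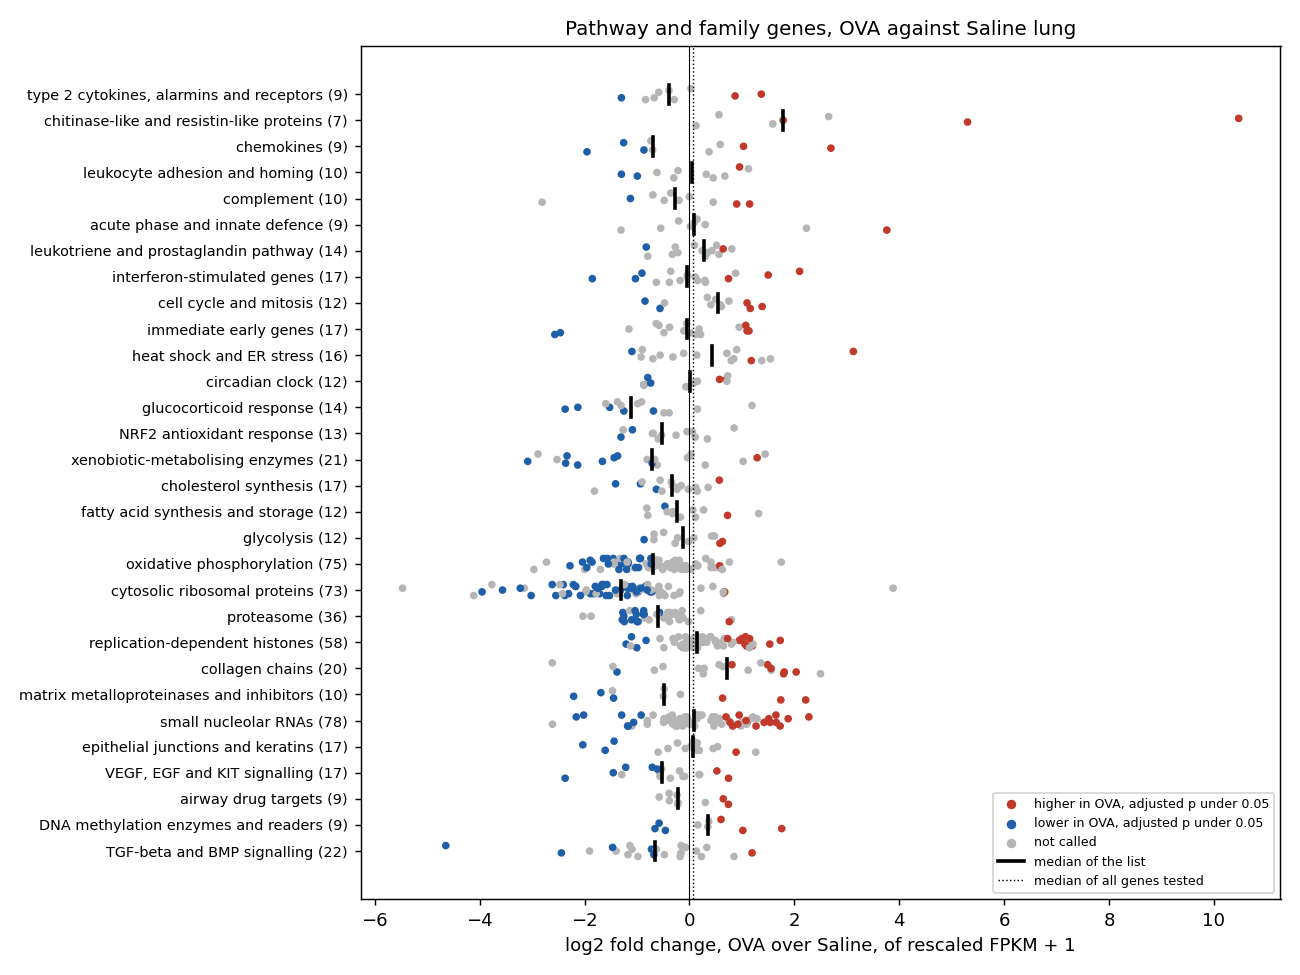
Log2 fold change of OVA over Saline (x axis) for the tested members of each pathway list, with each point a gene coloured by its call, the black bar the list median, the dotted line the median of all genes tested (0.06) and the number in brackets the members tested. Chitinase-like and resistin-like proteins have the highest median (1.79), and ribosomal proteins and glucocorticoid-responsive genes have the lowest medians.

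Counts for immediate early, interferon and lipid mediator genes lay near or below the 19.5% and 13.6% of all genes tested. Of 17 tested immediate early genes 3 rose and 2 fell. Myc, which drives growth, measured 0.819, 1.14 and 0.928 FPKM (Saline) against 2.48, 3.63 and 3.93 FPKM (OVA) (log2 fold change 1.13 ± 0.17, limma adjusted p = 0.00976), and Junb, of the AP-1 factor, measured 9.39, 11.9 and 8.47 FPKM (Saline) against 14.9, 32.5 and 22.5 FPKM (OVA) (log2 fold change 1.10 ± 0.30, limma adjusted p = 0.0361). Ctgf, a matrix-associated target of mechanical signalling, measured 55.3, 51.3 and 42.3 FPKM (Saline) against 10.3, 14.9 and 3.25 FPKM (OVA) (log2 fold change -2.46 ± 0.49, limma adjusted p = 0.0158), and Cyr61, of the same family, was listed at 4.59, 7.23 and 3.51 FPKM (Saline) against 0, 0 and 0 FPKM (OVA), where a value of 0 can be a failed estimate. Myc and Junb were higher, and Ctgf lower, in every OVA lung. Of 17 tested interferon-stimulated genes 3 rose and 3 fell. Mx1, the antiviral dynamin, measured 0.152, 0.0731 and 0.34 FPKM (Saline) against 3.15, 2.89 and 7.1 FPKM (OVA) (log2 fold change 2.10 ± 0.31, limma adjusted p = 0.00936), and Oas1a, the oligoadenylate synthetase, measured 1.08, 0.976 and 1.2 FPKM (Saline) against 4.29, 3.75 and 7.15 FPKM (OVA) (log2 fold change 1.50 ± 0.22, limma adjusted p = 0.00929). Both were higher in every OVA lung. Ifitm3, which blocks viral entry and is high in endothelium, measured 64.1, 45.8 and 54.5 FPKM (Saline) against 20.6, 34.9 and 24.7 FPKM (OVA) (log2 fold change -1.03 ± 0.24, limma adjusted p = 0.024). Of 10 tested complement genes, 2 rose and 1 fell. C3, the central component, measured 40.8, 49.2 and 41 FPKM (Saline) against 58.8, 99.9 and 94.1 FPKM (OVA) (log2 fold change 0.90 ± 0.24, limma adjusted p = 0.036), and its direction was reversed with the FPKM as deposited. Of 14 tested leukotriene and prostaglandin genes, 1 rose and 1 fell. Alox5, the target of leukotriene inhibitors and chosen after its values were seen, measured 1.44, 1.59 and 1.33 FPKM (Saline) against 2.36, 2.19 and 1.59 FPKM (OVA) (log2 fold change 0.30 ± 0.15, limma adjusted p = 0.163). Of the 9 tested airway drug targets 2 rose and none fell. Of 17 tested genes of epithelial junctions and keratins 1 rose and 3 fell, among them Tjp1, the scaffold ZO-1, with 24.3, 29.9 and 33 FPKM (Saline) against 12.4, 11.8 and 6.82 FPKM (OVA) (log2 fold change -1.44 ± 0.25, limma adjusted p = 0.0122), and Krt7, a keratin of simple epithelia, with 38.6, 33.6 and 29.3 FPKM (Saline) against 14.2, 11.3 and 6.89 FPKM (OVA) (log2 fold change -1.61 ± 0.27, limma adjusted p = 0.0111). When single libraries were left out, Myc, Mx1, Oas1a, Tjp1 and Krt7 kept their adjusted p below 0.05. The call was lost by Junb and C3 without any 1 Saline library, OVA 2 or OVA 3, by Ctgf without Saline 1 or Saline 2 and by Ifitm3 without any 1 Saline library, OVA 1 or OVA 3. With a common protein-coding sum, Ifitm3 did not pass the threshold, nor did Myc and Junb with the FPKM as deposited, nor did Ifitm3 after cyclic loess.

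Some of the largest changes belonged to none of these lists. Itpkb, a kinase of inositol phosphates in lymphocytes, measured 0.16, 0.016 and 0.0482 FPKM (Saline) against 24.8, 16.4 and 15.7 FPKM (OVA) (log2 fold change 4.19 ± 0.20, limma adjusted p = 0.000836). Zgpat, a zinc finger repressor, measured 0.196, 0.47 and 0.111 FPKM (Saline) against 26.7, 15.8 and 16.9 FPKM (OVA) (log2 fold change 4.02 ± 0.23, limma adjusted p = 0.00152), and Hmha1, a minor histocompatibility antigen of blood cells, measured 0.887, 1.32 and 0.0758 FPKM (Saline) against 37.9, 10.9 and 37.5 FPKM (OVA) (log2 fold change 3.96 ± 0.55, limma adjusted p = 0.00862). Each of these was near 0 in Saline. Itpkb and Zgpat averaged below 1 deposited FPKM in Saline, so their direction was fixed by the filter on the mean level. Hpgd, the enzyme that inactivates prostaglandins, fell, with 86.3, 125 and 82.5 FPKM (Saline) against 7.99, 6.53 and 1.64 FPKM (OVA) (log2 fold change -4.11 ± 0.49, limma adjusted p = 0.00708). Ece1, which activates endothelin, measured 49.1, 32.7 and 51.4 FPKM (Saline) against 0.458, 0.339 and 9.92 FPKM (OVA) (log2 fold change -4.01 ± 0.83, limma adjusted p = 0.0179). Stt3b, a subunit of the oligosaccharyltransferase, measured 24.4, 28 and 23.4 FPKM (Saline) against 0.802, 0.649 and 1.61 FPKM (OVA) (log2 fold change -3.73 ± 0.20, limma adjusted p = 0.00125). These 3 genes were at least 20 FPKM in every Saline lung. Srpr, the receptor of the signal recognition particle, stood at 16, 14.7 and 16.9 FPKM among the Saline libraries, with a listed value of 0 in each OVA library. It was 1 of 5 genes at 0 in every OVA library and at 5 FPKM or more in every Saline library, and 0 genes had the reverse pattern. A value of 0 for a housekeeping gene can be a failed estimate: Gapdh and Eno1 of glycolysis were listed at 0 in all 6 libraries. On leaving out 1 library at a time, Itpkb, Zgpat, Hmha1, Hpgd and Stt3b kept their adjusted p below 0.05. Calls were lost for Ece1 (log2 fold change -4.99 to -3.48) without any 1 Saline library.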

How the data were processed

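RNA-seq was made from whole lung in 3 Saline and 3 OVA libraries. Per the labels, the authors trimmed reads with cutadapt 1.10, aligned them with HISAT2 and built transcripts with StringTie 1.3.3b. The methods of the study name HISAT2 on mm10 and, for expression levels, ballgown, and do not name StringTie. The submitters' processing notes also name edgeR 3.16.5. The deposited table holds FPKM for 66548 transcript rows, and whether replicates were pooled at any step is not given in the sources used here. Rows without a gene symbol (31605) were set aside, rows of 1 symbol were summed, and libraries were rescaled to a common 75th percentile over rows averaging 1 FPKM or more. FPKM are not counts, so log2(FPKM + 1) was tested with limma 3.58.1 in R 4.3.3 (moderated test with an intensity trend, no covariates, two-sided, Benjamini-Hochberg adjustment over the 10969 genes averaging 1 FPKM or more, threshold 0.05). The step was tested on simulated data. With 3 libraries a group, an exact permutation test could not go below p = 0.1, and none was run.

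The members and lists were chosen with earlier results of these data known. Named genes were the 12 largest called increases and 12 largest called decreases without overlap, the 10 most abundant called genes in each direction, and from each list up to 5 members by change and 3 by level. Some of them are not reported here. Other genes named (Prg2, Alox15, Ccr3, Il4, Il13, Il9, Il25, Ccl17, Ccl22, Muc5ac, Spdef, Pecam1, Vwf, Alox5, Gapdh, Eno1, Ptprc) were chosen after their values were seen or as identity markers. Alternatives were other scalings, pseudocounts, filters, the highest row per gene, all 10 libraries in the fit, no trend, a replicate block, each library left out, and the screen of the methods. Promoters and microRNAs came from RefSeq tables on GRCm38.p6. The herb libraries entered the fit of all 10 libraries only.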

Additional observations from a re-analysis of the deposited data

Results flagged for a closer look

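Among the 31605 transcript models without a gene symbol, which no comparison above uses, 2 were listed at 0 in every Saline library and at 5 or more rescaled FPKM in every OVA library, and 7 had the reverse pattern. They were singled out because a signal stood in data outside the main measurement. The higher of the 2 measured 23.2, 13.4 and 11.6 FPKM in OVA 1, 2 and 3. Among genes with a symbol, 0 were listed at 0 in every Saline library at this level in OVA, and 5 had the reverse pattern.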

How the results depend on the processing

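Of 42 recomputed counts of called genes, 27 stayed within 1.5 times the main count of 2134 higher and 1497 lower. The others were 296 higher and 6306 lower with the FPKM as deposited, 3523 and 776 with a common protein-coding sum, 492 higher for genes averaging 5 FPKM or more, and 966 and 894 with the screen of the methods. Leaving out 1 library gave 962 to 1875 higher and 626 to 1448 lower. The replicate numbers did not pair the samples (correlations 0.050, -0.005 and 0.001 between same-numbered libraries), and a replicate block gave 1260 higher and 891 lower. Of 1115 recomputed list medians 91 had the other sign. In 73 of these the main median or its move was within the spread between OVA libraries, among them 10 with the FPKM as deposited (alveolar macrophages, B cells, platelets, leukocyte adhesion, acute phase, heat shock, clock, histones, small nucleolar RNAs and epithelial junctions). In the other 18 both were beyond it. With the FPKM as deposited these were dendritic cells (-0.41), T cells (-0.0052), smooth muscle (-0.19), leukotrienes and prostaglandins (-0.60), cell cycle (-0.14), collagens (-0.0816) and DNA methylation (-0.62), a setting that moved the median of all genes to -0.77. For genes averaging 5 FPKM or more they were mast cells (0.80), leukotrienes and prostaglandins (-0.33), cell cycle (-0.85) and DNA methylation (-0.045). Plasma cells turned with a common protein-coding sum (0.17) and, among fits without 1 library (-0.15 to 0.15), without Saline 3, chemokines after cyclic loess (0.18), and fatty acid synthesis with a common protein-coding sum (0.12), quantile normalization (0.044), cyclic loess (0.12) and, among fits without 1 library (-0.35 to 0.0050), without OVA 3. Of the genes named with a fold change, those reversed were Alox5 (-0.42), C3 (-0.24), Vegfa (-0.34) and Zbtb46 (-0.13) with the FPKM as deposited, Atp5a1 with quantile normalization (0.61) and cyclic loess (0.74), and Sftpd after cyclic loess (0.74). Sign changes in which neither value passed the test were not counted as reversed. Of 121 named calls, 58 held whichever library was left out. Apart from the scaling's own shift, the causes were not tested. The type 2 cytokines and most eosinophil granule genes averaged below 1 FPKM and were not tested, and the part of depth in this was not tested.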
